A study of Mus musculus with 4 samples.

Results

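Classical monocytes of the injured mouse spinal cord were described at 14 days post injury (dpi), the later of the time points sampled after spinal cord injury (SCI). These cells were picked by UMI counts, where a unique molecular identifier (UMI) stands for 1 captured RNA molecule. A cell in which 600 or more genes were detected and mitochondrial UMIs did not exceed 10% was taken as a member if it held at least 2 UMIs of Ly6c2 and at least 2 of Plac8, and at least 1 of Csf1r or Ccr2. It also had to hold fewer than 3 of 6 microglial genes and no UMI of Cd3e, Cd79a, Klrb1c, Ccr9, Elane or Cxcr2, which mark T cells, B cells, NK cells, plasmacytoid dendritic cells, granulocyte precursors and neutrophils. The rule found 676 members among the 10879 cells of the 14 dpi library that met the gene and mitochondrial limits, or 6.21% of them (exact Clopper-Pearson 95% interval 5.77 to 6.68%). That library held 11631 barcodes, of 31660 in the series.

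CD45+ cells of C57BL/6 mice, 3 months old, were sorted from the spinal cord and sequenced in 4 libraries, 1 per condition. The conditions were sham (healthy) with a standard dissociation, sham with a dissociation that contained the transcription inhibitor actinomycin D (ActD), and a contusion of the thoracic cord at 3 and at 14 dpi, both also with ActD. Mice of both sexes were pooled, and the labels name no transgene or deletion in any group. Totals were 60412094, 27447471, 125270696 and 129935880 UMIs in the order given. With 1 library per condition, no difference between conditions can be set against a spread between replicates, so no test was made and every interval given here covers counting error only. In the matrix headers, the 14 dpi and ActD sham libraries name software version 3.1.0, the other libraries 3.0.1, so the difference between 14 and 3 dpi and that between versions cannot be told apart. The 14 dpi library shared 23 barcodes with the standard sham, 17 with the ActD sham and 36 with the 3 dpi library, and no barcode was a member in both libraries of a pair.

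Classical monocytes leave the bone marrow by way of the chemokine receptor Ccr2, circulate in the blood with high surface Ly6C, and enter injured tissue, where they can become macrophages or cells resembling dendritic cells. In blood, some of them become non-classical monocytes, which have little Ly6C and depend on the transcription factor Nr4a1. In injured cord, they are the source of most infiltrating macrophages. Type I and type II interferons act on such cells through STAT proteins and induce antiviral genes and the MHC molecules that present antigen.

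The 4 marker genes were found as follows in the members. Ly6c2 encodes a protein of the Ly6C surface antigen (ENSMUSG00000022584; mm10, chr15:75108158-75111970), and its median was 18.5 UMIs per cell, with a range of 2 to 177. Plac8, a small protein of myeloid cells (ENSMUSG00000029322; chr5:100553725-100572245), had a median of 36 UMIs and a range of 2 to 244. The rule fixed the lower end of both. Ccr2 was found in 617 members (91.3%) with a median of 9.5 UMIs, Csf1r, the receptor for the growth factor of the mononuclear phagocytes, in 614, and both in 555. Ms4a4c, a membrane protein that the rule did not use, was found in 591 members (87.4%) with a median of 6 UMIs and a range of 0 to 46. Ly6c2 has near-identical copies in the Ly6 cluster, among them Ly6c1 at 2.8 CPM in the members, so its level is uncertain where reads fit more than 1 copy. CPM are UMIs of a gene per 1000000 UMIs, summed over the cells of a group.

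Not all members looked like monocytes. In 46 of them, RNA of the neutrophil granule proteins Camp, Ngp, Ltf and Lcn2 made up at least 100 of 10000 UMIs. The distribution had a gap there, since no member lay between 42.1 and 432 per 10000. These cells held Camp at 42853 CPM, Ngp at 40290 CPM and the chitinase-like protein Chil3 at 5978 CPM, whereas Ccr2 stood at 158 CPM and Ms4a4c at 129 CPM. Their median depth was 16211.5 UMIs, and a UMI of the proliferation marker Mki67 was found in 50% of them after each cell was thinned at random to 2000 UMIs. Cebpe, a transcription factor of granulocyte precursors, stood at 555 CPM in them and at 4.7 CPM in the other members. Their leading genes are those of granulocyte precursors and not of monocytes, so the main counts and lists are also given without them, and values are over all 676 members unless the 630 others are named. The remaining 630 members made up 5.79% of the cells and had a median of 8858 UMIs.

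In these 630 cells, Ly6c2 stood at 3234 CPM, Plac8 at 5512 CPM, Ccr2 at 1140.2 CPM and Ms4a4c at 891 CPM. The calcium-binding protein S100a8 stood at 16989 CPM over all members and at 639 CPM once the 46 cells were left out, which is below its 1654 CPM in T cells of the same library. A UMI of Camp was found in 11.97 to 14.5% and one of S100a8 in 47.4 to 47.8% of thinned T cells, B cells and microglia at 14 dpi. Granule RNA was thus found in all 3 of these classes, and its part in the levels of the monocytes was not tested.

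**Figure D1:**
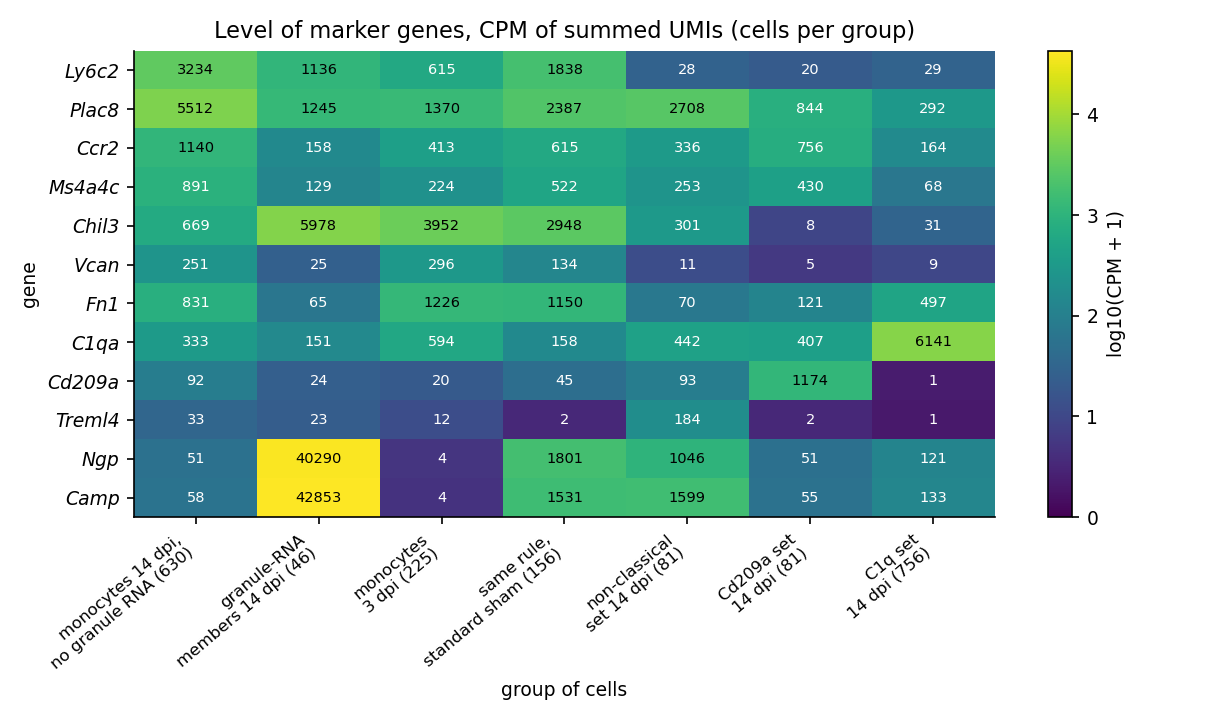
Level of marker genes (rows) in groups of cells (columns), with the CPM of summed UMIs printed in each field and colored on a log10 scale. The 630 monocytes at 14 dpi had Ly6c2 at 3234 CPM and Ngp at 51 CPM, the 46 cells with granule RNA had Ngp at 40290 CPM, and the C1q set at 14 dpi had C1qa at 6141 CPM.

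The same rule found 225 cells at 3 dpi (2.36% of 9528, 2.07 to 2.69%), 156 in the standard sham library (2.72% of 5736) and 18 in the ActD sham library (0.817% of 2203). No cell at 3 dpi held granule RNA at the above level, but 5 sham cells did after the standard dissociation and 1 after that with ActD, and these are kept in the sham values. Ly6c2 stood at 3234 CPM in the 630 cells at 14 dpi, at 615 CPM at 3 dpi, at 1838 CPM in the standard sham and at 2829 CPM in the ActD sham library. Plac8 stood at 5512, 1370, 2387 and 5907 CPM in the same order, Ccr2 at 1140.2, 413, 615 and 1288 CPM, and Ms4a4c at 891, 224, 522 and 1039 CPM. The rule used Ly6c2, Plac8 and Ccr2, so their levels are a description. Of the 4 markers, only Ms4a4c was not used by the rule. It was given as a marker of these cells, so its level is a description too. A share of a library adds up with that of every other class and gives no number of cells per mouse.

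Members close to the limits differed from the rest. The 56 members with Ly6c2 or Plac8 at exactly 2 UMIs had Ly6c2 at 435 CPM, Plac8 at 2012 CPM and S100a8 at 45742 CPM. The 87 cells just outside, with 1 UMI of one marker and at least 2 of the other, had Ly6c2 at 186 CPM, Plac8 at 2320 CPM and C1qa, a complement gene of macrophages and microglia, at 967 CPM. Members above 2 UMIs of both had C1qa at 307 CPM. With both markers at 3 UMIs or more, 620 cells were left at 14 dpi and 157 of the 225 at 3 dpi. Applied to cells thinned to 2000 UMIs, the rule found 599 and 57 cells. Thinned cells without Ly6c2 made up 34.2% of the 3 dpi set, 49.0% of T cells and 98.9% of B cells in that library. For Plac8 the shares were 15.1%, 61.9% and 75.9%. The 3 dpi set thus lay closer to the limits. Whether both sets hold the same cell type was not tested.

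Most genes of a list of 24 interferon response genes were higher in monocytes at 14 than at 3 dpi, as described below. Promoters of such genes are bound by STAT and IRF factors, often at an interferon-stimulated response element. The motif searched was GAAA, any 2 bases and GAAA again on both strands (on the other strand TTTC, any 2 bases and TTTC), in the 250 bases before each start in the RefSeq table for GRCm38.p6. Of the 24 genes, 16 were matched by symbol, and 8 of these (50%) held the motif, against 936 of all 27025 genes (3.46%). Of the MHC class I list, 3 of 13 matched genes held it, of the chemokine ligands 1 of 12, and of the MHC class II, cell cycle and classical monocyte lists none of 8, 17 and 11. A match describes these letters and is not a measured binding site. The promoters of Isg15, Ifit3 and Rsad2 are shown because they carry matches and belong to this list, and that of Ly6c2 because it is the defining marker and carries none. Capitals mark the matches, the 3 in Isg15 overlap, and each sequence runs 5′ to 3′ on the strand of the gene.
Isg15 (chr4:156200819-156201068, minus strand): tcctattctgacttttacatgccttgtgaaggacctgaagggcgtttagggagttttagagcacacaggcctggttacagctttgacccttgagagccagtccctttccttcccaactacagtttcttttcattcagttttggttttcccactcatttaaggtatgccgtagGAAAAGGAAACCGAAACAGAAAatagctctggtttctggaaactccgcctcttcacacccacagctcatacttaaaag
Ifit3 (chr19:34583279-34583528, plus strand): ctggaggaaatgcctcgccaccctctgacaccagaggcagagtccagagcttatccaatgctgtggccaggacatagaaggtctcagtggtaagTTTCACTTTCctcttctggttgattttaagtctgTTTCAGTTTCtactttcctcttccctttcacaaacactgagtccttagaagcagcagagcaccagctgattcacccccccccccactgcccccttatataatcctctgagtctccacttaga
Rsad2 (chr12:26456453-26456702, minus strand): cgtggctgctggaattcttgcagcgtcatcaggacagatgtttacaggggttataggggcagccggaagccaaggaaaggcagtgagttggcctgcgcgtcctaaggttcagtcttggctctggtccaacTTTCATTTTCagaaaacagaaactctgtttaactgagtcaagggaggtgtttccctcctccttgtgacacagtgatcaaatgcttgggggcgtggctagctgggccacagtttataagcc
Ly6c2 (chr15:75111938-75112187, minus strand): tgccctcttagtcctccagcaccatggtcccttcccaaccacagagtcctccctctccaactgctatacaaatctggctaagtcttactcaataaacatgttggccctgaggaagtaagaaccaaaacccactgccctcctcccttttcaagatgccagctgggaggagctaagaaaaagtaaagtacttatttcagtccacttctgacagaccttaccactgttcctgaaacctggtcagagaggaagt
The matches began 66 to 78 bases before the start in Isg15, 122 and 156 bases in Ifit3 and 120 bases in Rsad2.

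Over all genes, 8590 had at least 50 UMIs in the members of 14 and 3 dpi together, and their median log2 ratio of 14 over 3 dpi was 0.29. A gene is called higher or lower here if the ratio of CPM was at least 2-fold, with 0.5 UMIs added to each sum. By this measure, 1391 genes (16.2%) were higher and 489 genes (5.69%) lower at 14 dpi. Scaling with TMM factors, which shifts every log2 ratio down by 0.20, gave 1001 higher (11.7%) and 656 lower (7.64%), so the higher genes made up 74.0% of all called genes without and 60.4% with these factors. Without the 46 cells with granule RNA, 1440 of 8417 genes were higher (17.1%) and 458 lower (5.44%), and 1256 and 431 of these were the same genes as over all members. Ratios below are log2 of 14 over 3 dpi, and numbers of called genes for a list can be read against 16.2% and 5.69%.

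Genes of the interferon response were higher at 14 dpi almost throughout. Of the 24 genes, 22 were higher and none lower, with a median ratio of 2.14, and without the granule cells 23 were higher with a median of 2.29. The list summed to 8429 CPM at 14 dpi, or 9328 CPM without the granule cells, and to 1926 CPM at 3 dpi. Isg15, a ubiquitin-like protein (chr4:156199424-156200818), stood at 631 CPM in the 630 cells, at 92.9 CPM at 3 dpi, at 94.8 CPM in the standard sham and at 449 CPM in the ActD sham library. Irf7, the transcription factor that amplifies the response, stood at 593, 78.2, 118 and 726 CPM in this order. The RNA-binding protein Ifit3 stood at 195, 16.1, 18.3 and 158 CPM. For these genes, the 14 dpi and ActD sham sets were high and the 3 dpi and standard sham sets low, although the ActD sham set rests on 18 cells. The 14 dpi and ActD sham libraries are also those with software version 3.1.0 in their headers. For this pattern, the version cannot be told apart from the other differences between the libraries. Over all members, the ratio was 2.62 for Isg15 (exact conditional Poisson 95% interval 2.42 to 2.83), 2.78 for Irf7 (2.57 to 3.02) and 3.43 for Ifit3. Ifi27l2a was the most abundant gene of the list, at 3211 CPM against 736 CPM at 3 dpi (ratio 2.12, 2.05 to 2.20). The median of the list was 3.07 in female-called but 0.31 in male-called cells, whose call by sex is described below.

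MHC genes differed in the same direction. MHC class II carries peptides to helper T cells, and 6 of its 9 measured genes were higher with a median of 1.32, or 1.45 without the granule cells. H2-Aa, the alpha chain of I-A (chr17:34282744-34287823), stood at 1509 CPM in the 630 cells, 474 CPM at 3 dpi, 272 CPM in the standard sham and 887 CPM in the ActD sham library. Cd74, the invariant chain, stood at 4221, 1545, 1029.8 and 2618 CPM, and Ciita, the master regulator of the class, at 68.1, 26.7, 1.5 and 33.2 CPM. All 3 genes were highest at 14 dpi. Of the 15 class I genes, which present peptides to cytotoxic T cells, 9 were higher with a median of 1.36, with a like difference in lymphocytes as given below. B2m, the light chain, stood at 2360.1 CPM over all members and at 1439.5 CPM at 3 dpi (ratio 0.71), H2-D1 at 2344 and 910.5 CPM (1.36), and the non-classical H2-T23 at 388 and 75 CPM (2.37). H2-D1, H2-K1 and other class I genes are alike in sequence, so the split of UMIs among them is uncertain. In female-called cells the medians were 2.06 for class II and 2.17 for class I, whereas in male-called cells they were −0.17 and 0.19.

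Cell cycle genes were also higher. Of 20 genes, 19 were higher over all members (median 2.16) and 18 without the granule cells (1.97). Mki67 stood at 215 CPM in the 630 cells, 35.9 CPM at 3 dpi, 232 CPM in the standard sham and 521 CPM in the ActD sham library. Top2a, which untangles DNA, stood at 213, 37.7, 232 and 490.4 CPM. Without their cells with granule RNA, the standard and ActD sham sets had Mki67 at 233 and 553 CPM and Top2a at 240 and 520 CPM, so only the 3 dpi set was low. Among members of 3000 to 12000 UMIs, however, the median of the list for 14 over 3 dpi was 0.11, the ratio of Mki67 0.61 and that of Top2a −0.31. The median of the list was 3.09 in male-called but 0.19 in female-called cells. In 75 of the 630 cells, the list summed to at least 25 UMIs per 10000. Of these, 6 cells lay below 40 per 10000, and 16 further cells lay between 15 and 25.

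Of the genes that define classical monocytes, only some differed. In the list of 14 genes, 4 were higher and 2 lower with a median of 0.24, near that of all genes. The higher ones were the 4 markers, Ly6c2 (2.28), Plac8 (1.87), Ms4a4c (1.84) and Ccr2 (1.31, 1.21 to 1.41). All but Ms4a4c were used by the rule, so nothing is read from their number. Lyz2, the lysozyme of phagocytes and the most abundant gene of the list, stood at 16603 CPM in the 630 cells and 18054 CPM at 3 dpi. In the same sets, F13a1, a clotting factor subunit of monocytes, stood at 652 and 512.5 CPM, the proteoglycan Vcan at 251 and 296 CPM, and the acute phase protein Hp at 813 and 738 CPM. These lay within 2-fold. Chil3 stood at 669 CPM in the 630 cells and 3952 CPM at 3 dpi.

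Transcription factors of the lineage were mixed, with 5 of 24 higher and 5 lower (median 0.05). Irf8, which directs progenitors toward monocytes, stood at 324 CPM over all members against 141 CPM at 3 dpi (ratio 1.20). Nr4a1 stood at 90.7 against 222 CPM (−1.29). Cebpb stood at 1039 and 1035 CPM. Among adhesion and entry genes, 5 of 17 were higher and 3 lower, and Itga4, the integrin chain that binds Vcam1, stood at 346 against 84.7 CPM (2.03). Of the chemokine receptors, 1 of 10 was higher, which was Ccr2, and 6 were lower, among them Ccr1 (−1.52). Cx3cr1, the fractalkine receptor of non-classical monocytes and microglia, stood at 209 against 126 CPM (0.73). Markers of non-classical monocytes were higher for 8 of 12 genes and lower for 3 (median 1.25), with Ace at 77.8 against 6.0 CPM (3.65). The lower ones were Nr4a1, Cd36, a scavenger receptor (−3.68), and the lipid-binding protein Fabp4 (−3.14). Markers of monocytes that resemble dendritic cells were higher for 7 of 12 (1.25), with Cd209a, a C-type lectin, at a ratio of 2.07. The median of the latter list was 1.96 in female-called and −0.15 in male-called cells. The class II genes are also on that list. Without the granule cells, 5 transcription factors were higher and 5 lower (0.22), 7 adhesion genes higher and 2 lower (0.71), and the non-classical and dendritic-like medians were 1.33 and 1.39. With these cells kept, the adhesion median was 0.57 in female-called cells, with 7 of 15 genes higher and none lower. In male-called cells it was −0.07, with 2 of 16 higher and 3 lower. The non-classical medians were 2.18 (7 of 9 higher) in female-called and 0.69 (3 of 7) in male-called cells.

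**Figure D2:**
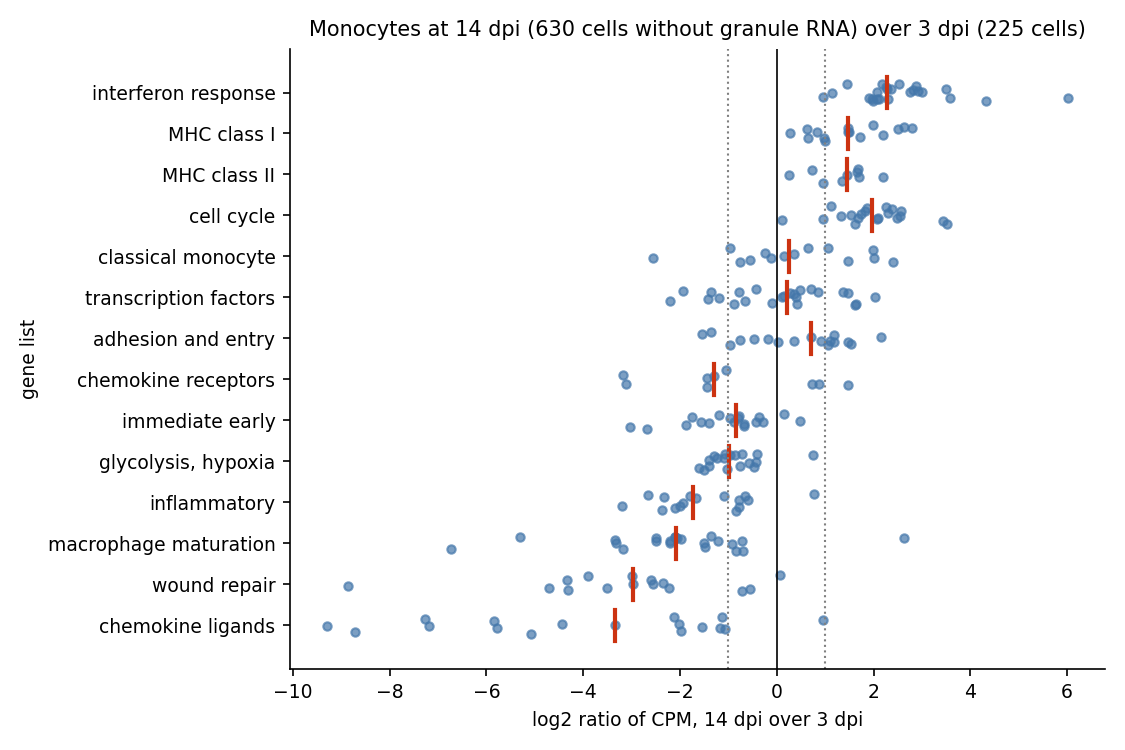
Log2 ratio of CPM of monocytes at 14 dpi (630 cells without granule RNA) over 3 dpi (225 cells), with 1 point per gene, a red line at the median of each list and dotted lines at 2-fold. Medians of the lists plotted ran from 2.29 for the interferon response to −3.34 for the chemokine ligands.

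Genes of tissue macrophages and wound repair were lower at 14 dpi. Of 22 genes of macrophage maturation, 18 were lower and 1 higher (median −2.16, with a like difference in lymphocytes as given below), of 15 genes of wound repair 12 were lower (−3.12), and of 8 border macrophage genes 7 were lower (−3.25). The matrix protein Spp1 stood at 194 against 8369 CPM (−5.43), the heme oxygenase Hmox1 at 64.6 against 1809 CPM (−4.81), and Thbs1, a matrix glycoprotein, at 163 against 2039 CPM (−3.65). In the standard sham library, Spp1 stood at 16.8 CPM and Thbs1 at 1619 CPM, so that of the sets named here, only the former was low in all but that of 3 dpi. Apoe, a lipid carrier, stood at 5245 against 9194 CPM (−0.81).

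Chemokine ligands had a median of −3.47, with 16 of 17 genes lower and none higher. Of the lists fixed, only that of platelet genes had a lower median (−9.09), with Pf4, which is also a ligand, and Ppbp as its 2 measured genes. The list of ligands summed to 1389 CPM at 14 dpi and 8536 CPM at 3 dpi. Pf4 stood at 2.23 against 1428 CPM (−9.28), Ccl7, a ligand of Ccr2 (chr11:82045712-82047525), at 2.1 against 357.5 CPM (−7.38), and Ccl2, another ligand of Ccr2, at 94.6 against 1049 CPM (−3.47). The neutrophil attractant Cxcl2 stood at 90.9 against 2077 CPM (−4.51). In the standard and ActD sham libraries, Ccl2 stood at 186 and 150 CPM and Cxcl2 at 521 and 55.4 CPM, so the 3 dpi set was the highest of the 4 for both. Ccl6 stood at 636 against 1605 CPM (−1.34) and was the most abundant ligand at 14 dpi.

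Inflammatory and immediate early genes were lower as well. Of the former, 10 of 16 were lower and none higher (median −1.82), and the cytokine Il1b stood at 208 against 956 CPM (−2.20). The lipopolysaccharide co-receptor Cd14 stood at 175 against 766 CPM. Of 18 immediate early genes, 8 were lower (−0.91, with a like difference in lymphocytes as given below), and Fos stood at 906 against 1740 CPM (−0.94). In sham cells it stood at 1522 CPM after the standard dissociation and at 601 CPM after that with ActD. Of 18 glycolysis and hypoxia genes, 9 were lower (−0.93), with Gapdh at 1024 against 2172 CPM (−1.09). Without the granule cells, medians were −2.09 for macrophage maturation, −2.96 for wound repair, −3.10 for border macrophages, −3.34 for chemokine ligands, −1.73 for inflammatory, −0.84 for immediate early and −0.997 for glycolysis genes. In cells of 3000 to 12000 UMIs, the medians of macrophage maturation and border macrophage genes were −1.21 and −1.58. Those of the class II and dendritic-like lists were 1.997 and 1.85 in these cells.

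Genes with low ratios were also found in lymphocytes of the 3 dpi library. In cells thinned to 2000 UMIs, the macrophage maturation list had a median of 190 UMIs per 10000 in the monocytes, 150 in T cells and 180 in B cells at 3 dpi, and of 65, 45 and 45 at 14 dpi without the granule cells, so that this list was lower at 14 dpi in all 3 classes. The chemokine ligand list had medians of 50, 42.5 and 15 at 3 dpi and of 10, 15 and 0 at 14 dpi. For the class I list the medians were 40, 60 and 35 at 3 dpi and 85, 120 and 55 at 14 dpi, so it was higher at 14 dpi in all 3 classes. Those of the immediate early list were 100, 45 and 60 at 3 dpi and 50, 25 and 20 at 14 dpi. Those of the interferon list were 10, 15 and 10 at 3 dpi and 70, 35 and 10 at 14 dpi. Spp1, which macrophages of injured tissue make in quantity, stood at 11573 CPM in the B cells of the 3 dpi library, above its 8369 CPM in the monocytes. Pf4 stood at 688 CPM in T cells against 1428 CPM in the monocytes, Ccl7 at 216 against 357.5 CPM and Cxcl2 at 665 CPM in B cells against 2077 CPM. Of the 12 genes with the smallest ratios, 5 stood below 2 times the higher of the 2 lymphocyte levels, 2 of them at or below it. In cells thinned to 2000 UMIs, a UMI of Ccl7 was found in 24.9% of the monocytes, 21.0% of T cells and 17.2% of B cells at 3 dpi, and one of Cxcl2 in 57.3%, 46.7% and 46.0%. Without thinning, the shares for Cxcl2 were 90.2%, 77.1% and 60%, at median depths of 8329, 4418.5 and 2608.5 UMIs. The share of the monocytes with Ccl7 at 3 dpi was thus close to that of T cells, and that with Thbs1 was not (77.8% against 32.4%). The part of free RNA in the ratios was not tested beyond these values. Leaving out also the cells of the 3 dpi set with at least 100 UMIs per 10000 of Spp1, Gpnmb and Fabp5, which left 194 cells, gave 1419 higher (17.2%) and 391 lower genes (4.73%), of which 1152 and 365 were the same as over all members.

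The 12 genes with the largest ratios over all members were Camp, Ngp, Ltf, Ly6g, S100a9, Ifi44, Rflnb, Chil1, Hist1h3c, Pglyrp1, Cebpe and S100a8, most of which are granule genes. Without the 46 cells they were Ifi44 (6.01), Ly6d (4.59), Ifi208 (4.58), Ifit2 (4.33), Ifi213 (4.30), Hist1h3c (4.24), Bex6, Ly6i, Ifi206, Camp, BC147527 and Gbp9, among which Ifi44, Ifi208, Ifit2, Ifi213, Ifi206 and Gbp9 belong to families induced by interferon. The ratio of Ly6d was −1.27 with the rule applied to thinned cells. The smallest included those of Pf4, Ccl7, Pdpn, Spp1, Hmox1, Hilpda, Cxcl2, Emp1, Saa3, Ecm1 and Il7r. The neutrophil-like list had a median of 3.69 over all members, of 0.59 without the granule cells and of 1.62 in cells of 3000 to 12000 UMIs. Of the other cell types, the list of 10 B cell genes, of which 4 were measured, summed to 246 against 79.6 CPM with Ighm as the most abundant, that of 10 T cell genes (3 measured) to 23.8 against 92.9 CPM with Thy1, that of 8 NK cell genes (3 measured) to 76.5 against 63.0 CPM with Klrd1, and that of 12 microglial genes (10 measured) to 739 against 592 CPM with Selplg. The lineage markers that the rule barred were at 0 by construction, and the part of these RNAs was not tested.

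Because mice of both sexes were pooled, each cell could be called by sex. A cell was male-called with a UMI of a Y-linked gene and none of Xist, and female-called in the opposite case. Of the members, 231 were male-called, 251 female-called and 194 had no call, so 47.9% of the called cells were male. At 3 dpi, 86 and 64 cells were called (57.3% male), and in the standard sham library 15 and 127 (10.6% male). This comparison was chosen after the data had been seen. The animals behind the cells of 1 sex are not known apart from each other, so sex and animal cannot be told apart, and cells are no replicates.

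The interferon and MHC genes differed between female-called and male-called monocytes at 14 dpi. Without the granule cells, 247 female-called and 208 male-called cells were compared over 7128 genes, of which 361 (5.06%) were higher and 336 (4.71%) lower in female-called cells. All 24 interferon genes were higher in female-called cells, with a median log2 ratio of female over male of 2.37. So were 6 of 7 class II genes (2.18) and 14 of 15 class I genes (1.35), whereas 18 of 20 cell cycle genes were lower (−2.64). Lists of other cell types also differed. Of 5 plasmacytoid dendritic cell genes, 3 were lower and 1 higher in female-called cells (−1.47), and of 5 myeloid progenitor genes 2 were lower (−0.72). Of 4 conventional dendritic cell genes 2 were higher (0.95). The B cell list summed to 150 CPM in female-called and 407 CPM in male-called cells. With the granule cells kept, 402 of 7342 genes were higher (5.48%) and 375 lower (5.11%), and the medians of the interferon, class II, class I and cell cycle lists were 2.54, 2.32, 1.48 and −2.58.

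Single genes show the size of the gap. Isg15 stood at 1231 CPM in female-called and 119 CPM in male-called cells (log2 3.37, 3.19 to 3.56), Irf7 at 1141 and 127 CPM, and H2-Aa at 2595 and 543 CPM (2.26, 2.17 to 2.35). Ly6a, which encodes the surface antigen Sca-1 and is induced by interferon, had the largest ratio, at 1171 and 17.1 CPM (6.08, 5.63 to 6.61). The reverse held for Fn1, fibronectin (chr1:71585520-71653200), at 203 and 1386 CPM (−2.77), Chil3 at 182 and 1083 CPM (−2.58), F13a1 at 225 and 968 CPM (−2.10) and Mki67 at 56.9 and 377.5 CPM (−2.72). Markers of the rule were not alike between the sexes. Ly6c2 stood at 4995 and 1666 CPM (1.58) and Plac8 at 8170.1 and 3121 CPM (1.39), but Ccr2 at 988 and 1249.7 CPM (−0.34). Ly6d, a surface protein of early lymphoid cells and B cells, was among the genes lowest in female-called cells (4.97 and 144 CPM), and the largest ratios after Ly6a were those of Spon1, Ifit2, Ifi44, Phf11a and Slfn4.

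At 3 dpi, the same comparison of 64 female-called and 86 male-called cells had 0.532% of 3383 genes higher and 1.33% lower. None of 11 measured interferon genes passed 2-fold (median −0.31), nor did any of 6 class II genes (0.14), and Ly6c2 stood at 619 CPM in female-called and 620.4 CPM in male-called cells. Isg15 stood at 98.8 and 81.5 CPM, Irf7 at 74.1 and 95.5 CPM and Fn1 at 1175 and 1227 CPM. Both sexes were thus low in the interferon genes measured and high in Fn1 at 3 dpi. Lymphocytes of the 3 dpi library held Fn1 as well. After thinning, no UMI of Fn1 was found in 24.4% of the monocytes, 61.0% of T cells and 48.3% of B cells at 3 dpi. The part of free RNA in the Fn1 level was not tested.

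For these 4 lists, medians were nearer to 0 in the other cells examined at 14 dpi, and that of the cell cycle list had the opposite sign in T cells. In the other Csf1r-positive cells, 2.67% of 8617 genes were higher in female-called cells and 3.56% lower, and 20 of 24 interferon genes were higher (1.48), 2 of 10 class II genes (0.46) and 1 of 15 class I genes (0.67), with 18 of 20 cell cycle genes lower (−1.80). Markers of endothelium, red cells and oligodendrocytes were also higher in the female-called cells of this set, for 6 of 6, 4 of 4 and 3 of 4 genes (5.35, 4.95 and 4.24). In microglia, with 1.30% of genes higher and 1.13% lower, 22 of 24 interferon genes were higher (1.52) and 5 of 20 cell cycle genes lower (−0.75). In T cells, with 1.43% of genes higher and 0.45% lower, none of 21 interferon genes was higher and 1 lower (0.48), and 6 of 13 cell cycle genes were higher (0.99). Microglia of the ActD sham library, with 3.99% of genes higher and 0.523% lower, had all 23 measured interferon genes higher in female-called cells (2.26), and those of the standard sham and 3 dpi libraries had medians of 0.17 and 0.18. In microglia of these 3 libraries, in the order ActD sham, standard sham and 3 dpi, the cell cycle medians were 2.29, 1.34 and 0.83, opposite in sign to that of the monocytes at 14 dpi. Markers of other cell types were also higher in female-called sham microglia. In the same order, medians were 2.77, 2.03 and −0.04 for B cell, 3.11, 3.63 and −0.20 for myeloid progenitor, and 2.43, 1.48 and −0.33 for classical monocyte genes. B cells of the standard sham library were 548 female-called and 28 male-called. Neither the part of other cell types nor the difference between monocytes and the other cells of this paragraph was tested.

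**Figure D3:**
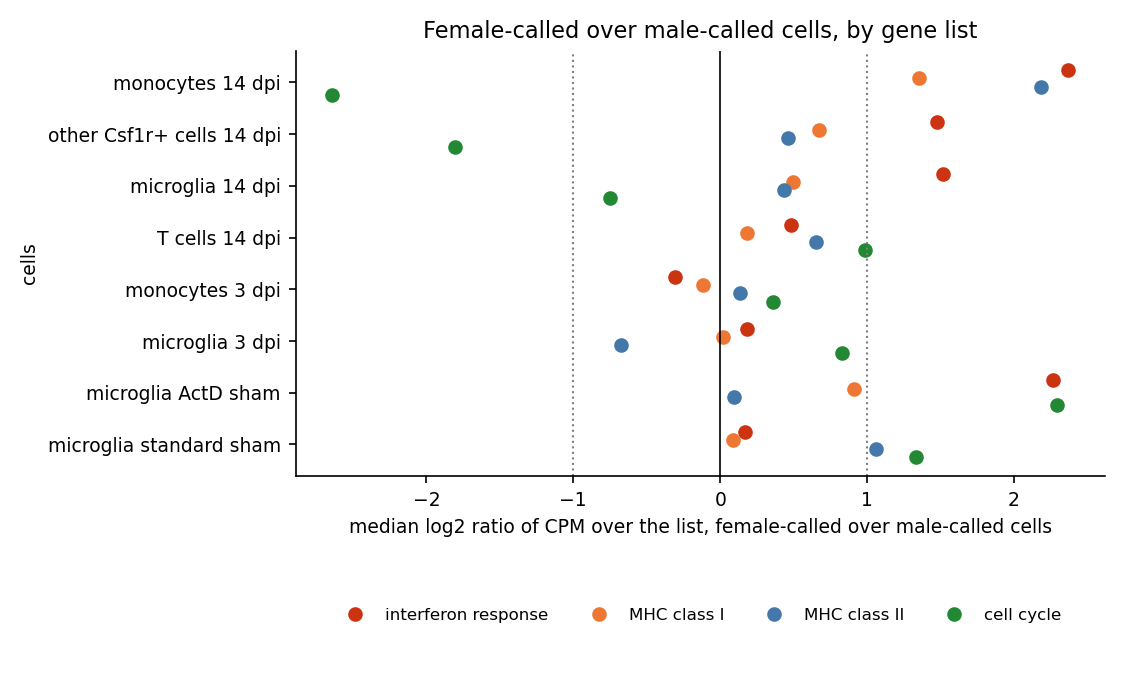
Median log2 ratio of CPM in female-called over male-called cells for 4 gene lists (colors), in cells named on the vertical axis, with the monocytes at 14 dpi taken without granule RNA and dotted lines at 2-fold. The interferon median was 2.37 in monocytes at 14 dpi, −0.31 in those at 3 dpi, 1.52 in microglia at 14 dpi and 2.26 in those of the ActD sham library.

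The difference between 14 and 3 dpi was not the same in cells of each sex. In female-called cells, 5771 genes were measured, 18.4% of them higher and 5.63% lower, and in male-called cells 6407, with 15.5% higher and 5.88% lower. Of the interferon genes, 23 of 24 were higher at 14 dpi in female-called cells (median 3.07), against 4 of 19 higher and 1 lower in male-called cells (0.31). All 7 measured class II genes were higher in female-called cells (2.06) and none of 7 in male-called cells (−0.17). For class I, 14 of 15 (2.17) and 2 of 13 (0.19) were higher. The cell cycle list was the reverse, with 1 of 10 higher in female-called (0.19) and 19 of 20 in male-called cells (3.09). Chemokine ligands and wound repair genes were mostly lower at 14 dpi in both, with the ligands at 9 of 12 (−1.58) and 11 of 12 (−2.75), and the wound repair genes at 13 of 15 (−2.91) and 11 of 14 (−3.61). The difference between the sexes was not tested.

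How the members varied from cell to cell was described in the 630 cells, each thinned to 2000 UMIs, which left out 8 that were shallower. The interferon list summed to a median of 70 UMIs per 10000 in a cell, with quartiles of 25 and 165 and a maximum of 725. At 3 dpi the median was 10. Female-called cells had a median of 170 with a 10th percentile of 70, and male-called cells a median of 30 with a 90th percentile of 71.5, so that the upper end of the male-called cells met the lower end of the female-called ones. Above 40 per 10000, the 90th percentile of the 3 dpi cells, lay 381 of 622 cells (61.3%, 57.3 to 65.1%), 237 of 245 female-called cells (96.7%, 93.7 to 98.6%), 54 of 208 male-called cells (26.0%, 20.1 to 32.5%) and 21 of 225 cells at 3 dpi (9.33%).

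Class II RNA was spread more unevenly. The genes H2-Aa, H2-Ab1, H2-Eb1 and Cd74 summed to a median of 5 UMIs per 10000, with an upper quartile of 95 and a maximum of 865, and 43.2% of cells had none. At least 50 per 10000 were held by 187 cells (30.1%), 123 female-called (50.2%) and 26 male-called (12.5%), against 28 cells at 3 dpi (12.4%). In a second random thinning of the cells of each sex, which gave their quantiles above and their shares for single genes below, 126 female-called and 24 male-called cells reached this level. Of the 381 cells above the interferon level, 150 also had class II RNA at this level, which were 121 female-called cells, 7 male-called cells and 22 without a call. Across cells, the interferon and class II sums had a Spearman correlation of 0.34 over all 622 cells, −0.01 in female-called and 0.14 in male-called cells. As a description of cells of 1 library, the relation over all cells was thus not found within the female-called ones. Interferon and Plac8 had 0.67 over all, 0.46 in female-called and 0.39 in male-called cells, and Fn1 and Chil3 had 0.40, 0.28 and 0.31. The class II sum and Chil3 had −0.40, −0.35 and −0.28.

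**Figure D4:**
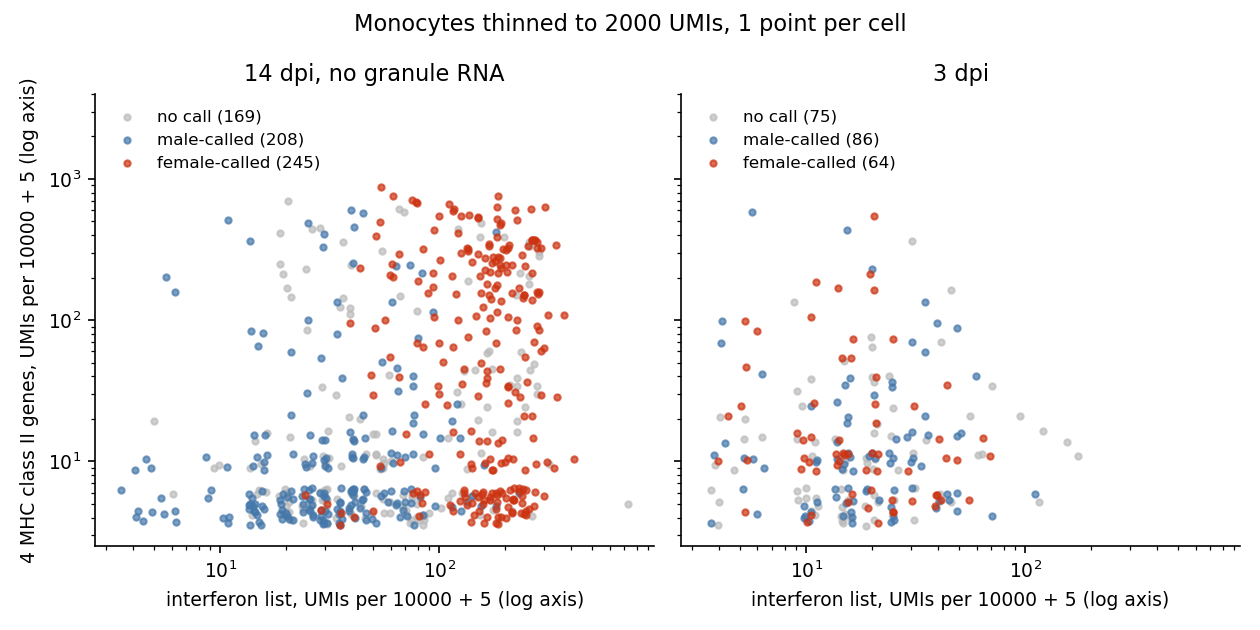
Sum of the interferon list (horizontal axis) and of 4 MHC class II genes (vertical axis) in each thinned monocyte, as UMIs per 10000 plus 5 on log axes with a small random shift, colored by sex call. At 14 dpi, female-called cells lay at a median interferon sum of 170 and male-called cells at 30, whereas the cells at 3 dpi had a median of 10.

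Shares of cells with a UMI are given for single genes. After thinning, a UMI of Isg15 was found in 46.5% of the 622 cells, in 77.6% of female-called (71.8 to 82.6%) and 13.9% of male-called cells (9.54 to 19.4%), and in 12% of the cells at 3 dpi. T and B cells at 14 dpi, which set a level for comparison, had 28.0% and 7% at median depths of 5433 and 3624 UMIs. T cells can make Isg15, so that share is no pure background. A UMI of H2-Aa was found in 32.8% of cells, 53.5% of female-called and 15.4% of male-called ones, against 3.34% of T cells. At 3 dpi the share was 22.7%, near the 20.5% of T cells in that library. For Fn1 the shares were 47.1%, 19.6% and 72.1% at 14 dpi, with 2.09% of T cells, and for Mki67 10.1%, 3.67% and 17.8%, with 7.72% of T cells. Without thinning, Isg15 was found in 64.3%, H2-Aa in 44.8%, Fn1 in 61.9% and Mki67 in 16.5% of the 630 cells.

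Members with at least 50 class II UMIs per 10000 without thinning numbered 188 and were 16.3% male among called cells, those below 10 numbered 370 and were 64.5% male, and 72 lay between. These are ranges of a score and not cell types. Outside the genes that made the score, the 188 cells had Cd209a, the transcriptional inhibitor Id3, the dendritic cell factor Batf3 (log2 2.26) and Ace (2.18) above the 370 cells, and Vcan (−3.38), Chil3 (−2.96), Fn1 (−2.95) and Ly6d (−6.72) below them. Chil3, Fn1 and Ly6d were also lower in female-called cells, so these ratios do not separate the class II level from the sex call. The class II sum and Fn1 had a Spearman correlation of −0.44 over all cells, −0.25 in female-called and −0.32 in male-called cells. Ly6c2 stood at 3096 and 3116 CPM in these ranges. The 75 cells with cell cycle RNA were 82.7% male and had Irf8 at 825.5 CPM, Isg15 at 147 CPM and H2-Aa at 299 CPM, against 364, 631 and 1509 CPM over the 630 cells. Male-called cells as a whole were also low in Isg15 and H2-Aa, as given above. The cell cycle and interferon sums had a Spearman correlation of −0.29 over all cells, −0.06 in female-called and −0.25 in male-called cells. The part of the sex call in these levels was not tested.

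Finally, the members were set beside the other Csf1r-positive cells at 14 dpi that were not microglia by the same rule. The rule used this contrast, so the values are a description. There were 962 such cells, which were 81 with non-classical genes, 81 with Cd209a, 756 with C1q genes and 44 others. Of 10090 genes, 877 were higher (8.69%) and 1270 lower (12.6%) in the members. The list of 12 microglial genes was lower in the members for 7 of 10 measured genes (median −2.58), at 739 CPM against 4191 CPM in the 962 cells. In female-called and male-called microglia at 14 dpi, it summed to 12939 and 13286 CPM. The part of microglia or their RNA in the 962 cells was not tested. The classical list was higher for 11 of 14 genes (median 2.97) and the macrophage maturation list lower for 22 of 23 (−3.41), and 15 of 24 interferon genes and 15 of 20 cell cycle genes were higher. Within female-called and male-called cells, the interferon medians were 1.46 (19 of 24 genes higher, 1 lower) and 0.34 (4 of 22 higher, 3 lower). The cell cycle medians were 0.71 (5 of 14 higher) and 1.64 (15 of 20 higher). Without the granule cells, the largest ratios were those of Ly6c2 (6.65), Vcan (4.72), Chil3 (4.33), Hp (4.0) and Slfn4 (3.81), and they also included Spon1, Ms4a8a, Pi16, Mmp8, F13a1 (3.41) and Plac8 (3.32). Plac8 was not particular to the members, at 2708 CPM in the non-classical set, and Ccr2 stood at 756 CPM in the Cd209a set. H2-Aa stood at 10590.0 CPM in the Cd209a set, 2728 CPM in the non-classical set, 1509 CPM in the 630 monocytes and 1238 CPM in the C1q set. Isg15 stood at 364, 112, 631 and 181 CPM in the same order, and the 631 CPM of the monocytes combine 1231 CPM in female-called and 119 CPM in male-called cells. The smallest ratios included those of Car1, Prg2, Mcpt8, Cldn5, Ptn, Spock2, Col3a1, Ctsk, Prss34, Aplp1 and Ptprb, which are known from red cell precursors, eosinophils, basophils, endothelium, glia and connective tissue.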

How the data were processed

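CD45+ cells were sequenced with a 10x Chromium kit in 4 libraries. Per the labels, the authors aligned the reads with Cell Ranger to mm10, and the versions in the matrix headers are 3.0.1 and 3.1.0. The deposited values are raw UMI counts, not normalized, in 1 matrix of genes by barcodes for each library, and they include barcodes below the gene and above the mitochondrial limit. No column of per-sample values was left without a sample.

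Members were found by the rule in the report, UMIs were summed per group and scaled to CPM, and genes were matched by identifier to GENCODE M21 (30934 of 31053 identifiers). Ratios carry exact conditional Poisson and shares exact Clopper-Pearson 95% intervals, which cover counting error only. No replicates existed, so no test was made. For shares and sums per cell, cells were thinned to 2000 UMIs. Free RNA was gauged in T and B cells of the same library. Doublets were kept, and removing the highest Scrublet scores at 0.8% per 1000 cells was an alternative, which took out 947 cells at 14 dpi, 19 of them members and 8 of those with granule RNA. TMM factors came from edgeR. In data simulated from the sums with known changes, the intervals held the true ratios near their stated rate. Such data hold counting error alone, so this says nothing about the spread between cells or animals.

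Genes named are the 4 markers, the 12 largest and 12 smallest ratios in each comparison among genes with at least 200 UMIs (without sex-linked, mitochondrial, hemoglobin, immunoglobulin and ribosomal protein genes), and the up to 4 most abundant genes of each of 31 lists. Other genes named, such as Isg15, Irf7, Ly6a, Fn1 and Ace, were chosen after their values were seen. The members and lists were chosen with earlier results of these data known. The comparison of female-called with male-called cells and the removal of cells with granule RNA were added after seeing the data. Promoter sequences are from RefSeq (GRCm38.p6). Protein sequences were not used here, and a few genes that the rule names are not reported here. Tools were Python 3.11.15, numpy 2.4.6, scipy 1.17.1, pandas 2.3.3, scanpy 1.11.5, matplotlib 3.10.9, R 4.3.3 and edgeR 4.0.16.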

Additional observations from a re-analysis of the deposited data

How the results depend on the processing

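No paired analysis was possible because each condition was 1 library without replicates. The number of members stayed within 1.5 times of 676 under the 8 alternatives tried, but the 3 dpi set of 225 cells numbered 57 with the rule applied to thinned cells and 410 with markers at 1 UMI, and the 962 other Csf1r-positive cells numbered 3157 with the thinned rule. For 14 over 3 dpi, higher genes numbered 724 of 5113 (14.2%) with at least 200 UMIs per gene and 2469 of 14907 (16.6%) with at least 1 UMI. Lower genes numbered 280 (5.48%) and 2193 (14.7%), or 325 of 5771 (5.63%) in female-called cells. For members over other Csf1r-positive cells, higher genes numbered 1549 (13.4%) with the rule applied to thinned cells, 564 (6.42%) in cells of 3000 to 12000 UMIs and 2064 (12.4%) with at least 1 UMI per gene. Lower genes numbered 798 (9.09%) in cells of 3000 to 12000 UMIs, 836 (10%) in male-called cells, 596 (8.53%) with at least 200 UMIs and 4690 (28.1%) with at least 1 UMI. Shares with a UMI over all members were 33.0% with thinning to 1000 UMIs and 62.0% without thinning for Isg15, 28.4% and 43.3% for H2-Aa, 34.3% and 58.4% for Fn1, 34.0% and 58.9% for Chil3, and 19.97% without thinning for Mki67.

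Of the log2 ratios of 14 over 3 dpi, the sign changed for 11 gene and 3 list values named first, which is not a full count. In male-called cells these were the dendritic-like list (−0.15), the class II list (−0.17), Cd74 (−0.23), H2-Aa (−0.17), H2-Ab1 (−0.13) and H2-Eb1 (−0.20). With the thinned rule they were Fcrls (0.89), Ly6d (−1.27), Olfml3 (0.72) and Pecam1 (−0.16), in cells of 3000 to 12000 UMIs Top2a (−0.31), with at least 1 UMI per gene the endothelial list (−0.25), and for S100a8 −0.27 without the granule cells and −0.49 without macrophage RNA as well. Some list medians within 2-fold also changed sign. Among them were the classical monocyte (0.24 to −0.35) and NK cell lists (0.11 to −0.42) in female-called cells. Others were the adhesion (0.54 to −0.07) and transcription factor lists (0.05 to −0.01) in male-called cells. With TMM factors, the transcription factor list stood at −0.15 and the microglial list at −0.06 (0.14 without them). Against the other Csf1r-positive cells, the sign changed with markers at 1 UMI for the erythroid list (2.45), Hba-a1 (1.93), Hba-a2 (3.50), Hbb-bs (2.96), Hbb-bt (1.74), Mcpt8 (0.80) and Prss34 (2.01). With the thinned rule it changed for that list (0.46), H2-Eb1 (0.33), Hba-a1 (0.33), Hba-a2 (0.59) and Hbb-bs (0.69), in cells of 3000 to 12000 UMIs for the list and Hbb-bs (both 2.02), and in male-called cells for the oligodendrocyte list (0.62) and Hbb-bs (0.10). Without the granule cells it changed for the neutrophil list (−0.11), Camp (−0.19), Lcn2 (−0.038), Ltf (−0.17), Ngp (−0.092) and Pglyrp1 (−0.0089). Here, too, the list is not full, and some medians within 2-fold changed sign. In male-called cells these included the non-classical (0.77 to −0.22), class I (0.53 to −0.05), inflammatory (0.01 to −0.51) and wound repair lists (0.14 to −0.11). In female-called cells they included the dendritic-like (−0.48 to 0.15) and chemokine receptor lists (−0.16 to 0.31). The cause was not tested, except that leaving out the granule cells removes their RNA by construction.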
